A study of Nasonia vitripennis x Nasonia giraulti with 2 samples.

Results

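The CpGs described here lie on the small scaffolds of the Nasonia vitripennis genome (assembly v1.0), taken as those whose number is above 300. All CpGs listed in both deposited libraries on such scaffolds were included, which gave 216141 of 5531492 CpGs (3.91%) on 2383 scaffolds numbered up to 6116. The other 5315351 CpGs lie on scaffolds 1 to 300, which served for comparison. The study sequenced bisulfite-treated genomic DNA (WGBS-seq) of hybrids between Nasonia vitripennis (Nv, strain AsymCX) and Nasonia giraulti (Ng, strain R16A), a pair of closely related parasitoid wasps. In F1VG the mother was Nv and the father Ng, and in F1GV the mother was Ng and the father Nv. Both were whole bodies of adult females 24 h after eclosion, pooled from 50 individuals, with 1 library per cross. In both libraries each read could be assigned to the Nv allele (V, with methylation percentage Va) or the Ng allele (G, with Ga) where it carried a difference between the species. A pool of whole wasps mixes all tissues, and levels are averages over their cells.

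Bisulfite treatment converts unmethylated cytosines and leaves methylated ones, so that the share of unconverted reads at a CpG is its methylation percentage. Insects methylate few of their CpGs, mostly in clusters within the transcribed part of genes, and leave the rest of the genome nearly bare. Wasps are haplodiploid and the daughters of a cross are diploid, so each F1 female carries an Nv and an Ng copy of every nuclear gene in the same cell. A difference that stays with the species allele in both reciprocal crosses is the pattern of control in cis, and a difference that changes sides with the mother is the pattern of genomic imprinting. A scaffold is a stretch of assembled sequence, and small scaffolds are pieces that the assembly did not join to longer ones. No gene annotation or genome sequence of the build used by the files was at hand, so scaffolds and positions are named without genes.

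These scaffolds were short and unevenly filled. The last listed CpG lay at a median position of 6079 bp (quartiles 1273.5 and 16816), against 360320 bp on scaffolds 1 to 300. A small scaffold held a median of 24 CpGs (quartiles 6 and 74), against 1507.5 on scaffolds 1 to 300. A total of 800 small scaffolds held at least 50 CpGs, and these carried 192256 of the 216141. SCAFFOLD350 held most with 7181 CpGs, of which 35 (0.487%) were methylated at a pooled level of at least 20%, and SCAFFOLD373 followed with 6371, of which 0 were. These 2 scaffolds were named after their values were seen. Neighbouring listed CpGs lay a median of 14 bp apart on small scaffolds and 10 bp apart on scaffolds 1 to 300.

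Depth was slightly lower on the small scaffolds. Their CpGs received 10282839 counts in F1VG and 12463614 counts in F1GV. The median was 45 reads per CpG in F1VG and 55 in F1GV, against 48 and 58 on scaffolds 1 to 300. The median depth per allele was equal in both classes of scaffolds, at 21 V and 20 G reads in F1VG and 26 V and 25 G reads in F1GV. A CpG is listed only if both alleles have 8 or more reads. Of the CpGs listed in F1VG on small scaffolds, 95% were also listed in F1GV, and of those listed in F1GV 81.9% were also listed in F1VG, against 95.3% and 84.9% on scaffolds 1 to 300. Reads without an allele made up 7.36% of the counts in F1VG and 7.45% in F1GV on small scaffolds, against 10.8% and 10.9% on scaffolds 1 to 300. CpGs deeper than 2 times the median of the series made up 1.25% and 0.734% of small-scaffold CpGs, against 1.44% and 0.690%, and 0 of the 800 scaffolds with at least 50 CpGs exceeded that depth as a whole in either library.

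The V share of the allele-assigned reads was 51.1% in F1VG and 51.0% in F1GV on small scaffolds, against 50.8% and 50.6% on scaffolds 1 to 300. Single small scaffolds departed further from an even share. Among the 800 with at least 50 CpGs the V share ran from 35.6% to 61.8% in F1VG and from 34.9% to 62.6% in F1GV, against 47.3% to 56.3% and 46.4% to 57.2% on 299 scaffolds of the other class. The lowest V shares were found on SCAFFOLD3678 (35.6% in F1VG and 34.9% in F1GV), SCAFFOLD583 (36.7% and 37.5%) and SCAFFOLD2185 (40.5% and 38.5%). The highest were found on SCAFFOLD1664 (61.8% and 62.6%), SCAFFOLD2226 (59.2% and 61.5%) and SCAFFOLD5190 (54.7% and 61.6%). The imbalance was similar in both crosses on these scaffolds except SCAFFOLD5190, where it was stronger in F1GV. Over the 800 scaffolds the V share correlated between the libraries with a Pearson's r of 0.576 and a Spearman's rho of 0.50, a description across scaffolds that share both libraries and the same allele assignment. SCAFFOLD1664 was also the deepest, with a median of 66 reads in F1VG and 81 in F1GV, followed by SCAFFOLD4256 (66 and 72) and SCAFFOLD3196 (61 and 72). None of these 8 scaffolds held a CpG at a pooled level of at least 20%, so none of the methylated CpGs described next lay on them.

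Over the reads of each allele, levels on small scaffolds were low, close to those on scaffolds 1 to 300 and slightly higher. In F1VG 2.32% of V reads and 2.33% of G reads were methylated, against 2.25% and 2.29% on scaffolds 1 to 300. In F1GV these shares were 2.44% of V and 2.44% of G reads, against 2.33% and 2.37%. These levels include unconverted reads at CpGs of low level. SCAFFOLD373, without a CpG at a pooled level of at least 20%, still had 1.64% over all reads of both libraries. The source of such reads was not tested. A CpG was counted as methylated where the level over all reads, pooled over both libraries, was at least 20%. This held for 2440 of the 216141 CpGs, or 1.13% (95% Wilson interval 1.09% to 1.17%), against 51303 CpGs or 0.965% (0.957% to 0.974%) on scaffolds 1 to 300. Taken singly, F1VG gave 1.15% and F1GV 1.15%, against 0.993% and 0.981%. No read was methylated in either library at 27.0% of the small-scaffold CpGs, against 26.6%. The intervals here and below treat CpGs as independent and cover counting error only. No removal of PCR copies is described, so copies of a molecule may remain in the counts. CpGs of a scaffold are not replicates, so scaffold classes are compared without a test. The share on small scaffolds was 1.06% without SCAFFOLD309 and 0.957% without the 5 scaffolds that held most methylated CpGs, the last a choice made after the data were seen. Scaffolds chosen in this way lower the share when left out, and none were left out of scaffolds 1 to 300. The 5 leading scaffolds held 17.4% of the methylated CpGs on small scaffolds, against 24.3% on scaffolds 1 to 300.

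Methylated CpGs of small scaffolds lay more often at intermediate levels. From 40% to 60% lay 23.6% of the methylated CpGs on small scaffolds (21.9% to 25.3%), against 17.6% (17.3% to 18.0%) on scaffolds 1 to 300. From 80% to 100% lay 34.6% (32.7% to 36.5%), against 39.2% (38.8% to 39.7%). The median level of a methylated CpG was 63.5% on small scaffolds (quartiles 41.0% and 86.1%), against 72.5% (46.1% and 87.3%). At a level of at least 50% the shares of CpGs were close, 0.709% (0.675% to 0.746%) against 0.693% (0.686% to 0.70%).

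**Figure D1:**
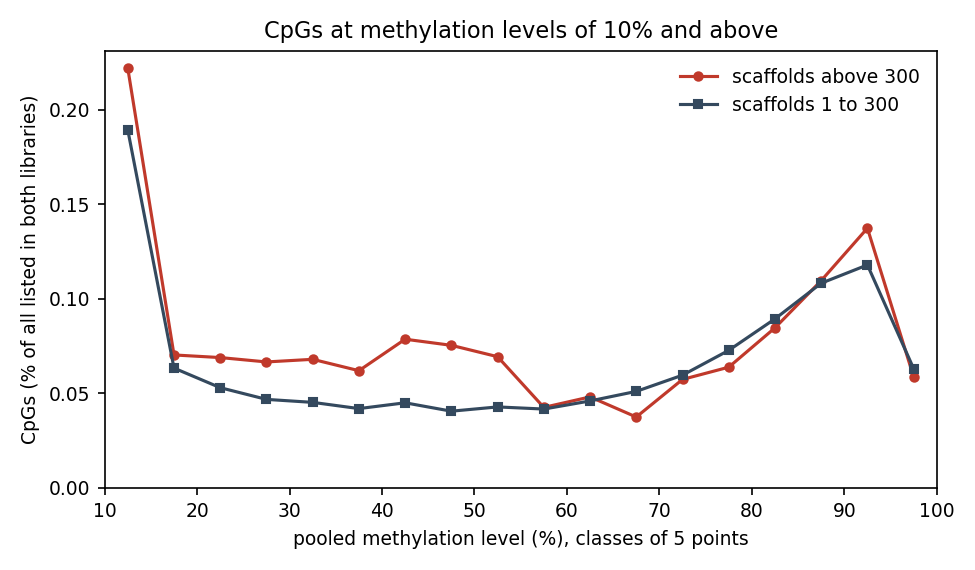
Share of CpGs (y axis, % of CpGs listed in both libraries) in each class of 5 percentage points of the pooled methylation level (x axis) from 10% upward, for small scaffolds (circles) and scaffolds 1 to 300 (squares). Small scaffolds lie above the others from 10% to 55% and from 90% to 95%, close to them from 55% to 65% and from 85% to 90%, and below them from 65% to 85% and above 95%.

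Most small scaffolds, 2177 of the 2383, held no CpG at a pooled level of at least 20%. The other 206 (8.64%) had such a methylated CpG, against 200 of 300 (66.7%), and among scaffolds with at least 50 CpGs the counts were 110 of 800 (13.8%) against 200 of 299 (66.9%). The 110 had a median methylated share of 5.60%, against 0.917% on the 200, and the share was under 5% on 49 of the 110, against 195 of the 200. Since small scaffolds hold fewer CpGs, a single cluster weighs more in their share. A methylated share of at least 20% of the CpGs was found on 13 of the 800 small scaffolds and on 0 of the 299 others, whose highest share was 11.6%. Of all methylated CpGs on small scaffolds, 50% lay on 31 scaffolds, and the 10 scaffolds that held most had 27.0% of them with only 3.35% of the CpGs. On scaffolds 1 to 300 the 10 leading scaffolds held 40.4% of the methylated CpGs with 32% of the CpGs.

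**Figure D2:**
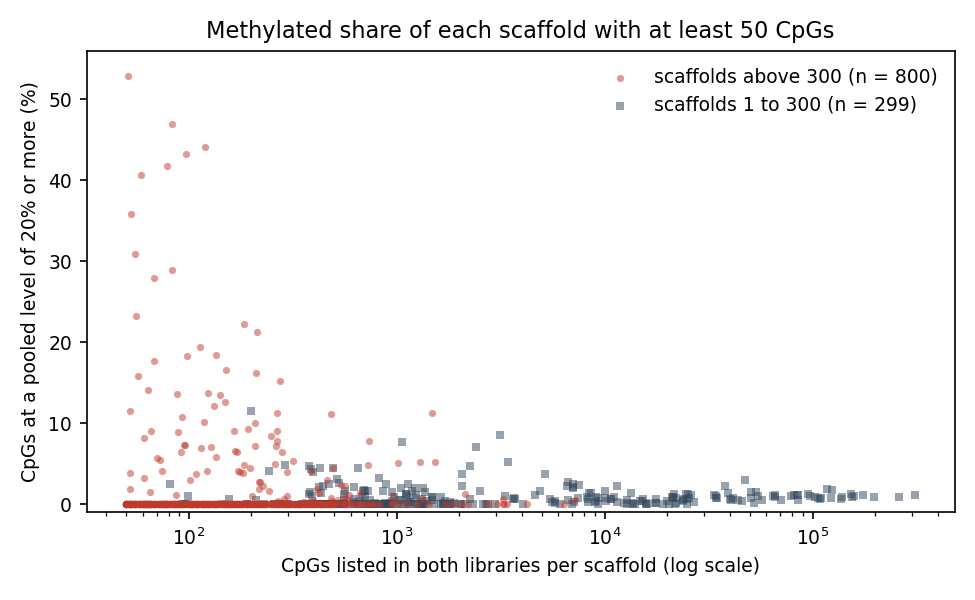
Share of CpGs with a pooled level of at least 20% (y axis, %) against the number of CpGs (x axis, log scale) for every scaffold with at least 50 CpGs, one point per scaffold, for 800 small scaffolds (circles) and 299 scaffolds numbered 1 to 300 (squares). Small scaffolds lie at 0% in most cases and reach up to 52.9%, while the others stay at or below 11.6%.

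Methylated CpGs came in clusters on both classes of scaffolds. Another methylated CpG lay within 200 bp at 88.0% of the methylated CpGs on small scaffolds (86.7% to 89.3%), against 89.8% (89.6% to 90.1%). The next listed CpG was methylated as well in 81.2% of cases (79.6% to 82.8%), against 79.1% (78.8% to 79.5%). Only 69 methylated CpGs on small scaffolds (2.83%) had no other within 1000 bp, against 1.49%.

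The 5 scaffolds with most methylated CpGs were SCAFFOLD309, SCAFFOLD1099, SCAFFOLD372, SCAFFOLD575 and SCAFFOLD636. SCAFFOLD309 held 165 among 1471 CpGs (11.2%), with a mean Va of 71.5% ± 27.7 and Ga of 58.6% ± 37.0 in F1VG, and 76.2% ± 23.7 and 60.3% ± 34.9 in F1GV (SD across CpGs, here and below). SCAFFOLD1099 held 81 of 1532 (5.29%), SCAFFOLD372 held 68 of 1302 (5.22%) and SCAFFOLD575 held 57 of 733 (7.78%). On all of these Va was the higher mean in both crosses. SCAFFOLD636 held 54 of 483 (11.2%) and had the largest mean difference of the 5, with Va at 64.6% ± 27.4 and Ga at 32.5% ± 39.6 in F1VG, and 69.4% ± 22.2 and 32.8% ± 37.5 in F1GV. The spread of Ga was wider than its mean. The highest methylated share belonged to SCAFFOLD5599, a scaffold listed up to position 4010 on which 27 of 51 CpGs (52.9%) were methylated, and SCAFFOLD682 followed with 39 of 83 (47.0%).

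The limit at number 300 did not mark a step in depth. The 10 scaffolds just inside it, up to SCAFFOLD310, had a median of 45 and 55 reads per CpG in F1VG and F1GV, against 46 and 57 on the 10 just outside it, up to SCAFFOLD300. Methylated were 193 of 4612 CpGs (4.18%) inside, of which SCAFFOLD309 gave 165, SCAFFOLD308 gave 21, SCAFFOLD302 gave 4 and SCAFFOLD307 gave 3, and 45 of 7070 (0.636%) outside, of which SCAFFOLD292 gave 41 and SCAFFOLD299 gave 4. Neighbouring scaffolds thus differed far more than the 2 classes did.

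On average V had the higher methylation percentage at the 2440 methylated CpGs. In F1VG the mean Va was 65.6% ± 32.8 and the mean Ga 59.1% ± 37.0 on small scaffolds, against 69.6% ± 28.0 and 65.0% ± 32.2 on scaffolds 1 to 300. In F1GV they were 67.9% ± 30.9 and 58.3% ± 34.9, against 70.1% ± 26.3 and 63.3% ± 30.6. V was thus higher whether it came from the mother or the father, and the SDs were wide in both crosses. Va and Ga differed by at least 50 percentage points at 28.6% of these CpGs in F1VG (26.8% to 30.4%) and 29.5% in F1GV (27.7% to 31.3%), against 13.1% and 12.9%.

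When the reads of both libraries were pooled by allele, 441 methylated CpGs (18.1%) had V at 50% or more and G under 20%, against 8.19% on scaffolds 1 to 300. The reverse, G at 50% or more and V under 20%, was found at 241 (9.88%), against 2.77%. Both alleles reached 50% at 1263 (51.8%), against 64.3%, and the other 495 (20.3%) had no such clear state, against 24.8%. CpGs that were methylated on G alone therefore had the largest ratio between the 2 classes of scaffolds.

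Allele-specific methylation (ASM) was tested at each CpG by two-sided Fisher's exact test of the methylated and unmethylated V and G reads within each library. The test was run on all 72225 CpGs of the series with a V plus G level of at least 10% over both libraries, with Benjamini-Hochberg adjustment over all of them, and those that reached an adjusted p below 0.05 are the ASM-CpGs. On small scaffolds 3185 CpGs on 458 scaffolds passed this filter. It ignores which allele is methylated, and a CpG that is bare on one allele enters only through the other, so the counts below describe the CpGs tested and not all members. In F1VG 869 of the 3185 were ASM-CpGs (27.3%, 25.8% to 28.9%), against 14.9% on scaffolds 1 to 300 and 15.4% of all tested CpGs. In F1GV 1026 were ASM-CpGs (32.2%, 30.6% to 33.9%), against 17.4% on scaffolds 1 to 300 and 18.1% of all tested CpGs.

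V was the higher allele at most ASM-CpGs, but at a smaller part of them than on scaffolds 1 to 300. It was higher at 59.8% of the ASM-CpGs in F1VG (56.5% to 63.0%) and 66.0% in F1GV (63.0% to 68.8%) on small scaffolds, against 65.5% (64.5% to 66.4%) and 73.0% (72.2% to 73.8%). The size of the difference had a median of 72.7 points in F1VG and 69.1 points in F1GV, against 58.9 and 54.5.

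The tested CpGs had a median of 18 V and 17 G reads in F1VG and 24 V and 23 G reads in F1GV on small scaffolds, against 19, 18, 24 and 24 on scaffolds 1 to 300. Among CpGs with 16 to 32 reads on each allele in each library, 33.1% of 381 were called in F1VG and 31.8% in F1GV on small scaffolds, against 17.4% and 17.9% of 10082. Within this range the median was 21 V and 21 G reads in F1VG and 24 V and 25 G reads in F1GV on small scaffolds, against 21, 21, 25 and 25. In percentage points the contrast was widest at intermediate levels. From a pooled level of 40% to 60%, 65.6% of the tested CpGs were called in F1VG and 68.9% in F1GV, against 35.8% and 39.1%. From 20% to 40% the shares were 53.7% and 68.6%, against 37.2% and 47.8%, and from 60% to 80% they were 19.5% and 20.1%, against 10.5% and 10.8%. From 80% to 100% the shares were 2.73% and 4.27%, against 2.03% and 1.87%, and from 10% to 20% they were 11.4% and 18.4%, against 11.7% and 15.9%. A lower share of reads without an allele, as given above, went along with the larger number of calls, and its part in this result was not tested.

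The share of ASM-CpGs was already higher on the upper numbers within scaffolds 1 to 300. It was 14.4% in F1VG and 16.9% in F1GV on scaffolds 1 to 100, 19.4% and 21.3% on those up to 200, and 19.9% and 23.7% on those up to 300. Among the small scaffolds it was 27.9% and 32.2% on numbers up to 500, 28.6% and 34.3% up to 1000, and 24.4% and 30.6% up to 2000. Numbers above 2000 and up to 4000 had 31.5% and 32.5%, and those above 4000 had 20.3% (15.2% to 26.6%) and 27.6% (21.8% to 34.3%) of 192 tested CpGs. In this last group alone G was the higher allele at most ASM-CpGs, and V was higher at 28.2% of them in F1VG and 39.6% in F1GV. The numbers of ASM-CpGs behind these 2 shares were 39 and 53, and the 14 CpGs of the region on SCAFFOLD5280 described below were among them. Without this region, a choice made after the data were seen, V was higher at 44% of 25 ASM-CpGs in F1VG and 53.8% of 39 in F1GV.

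**Figure D3:**
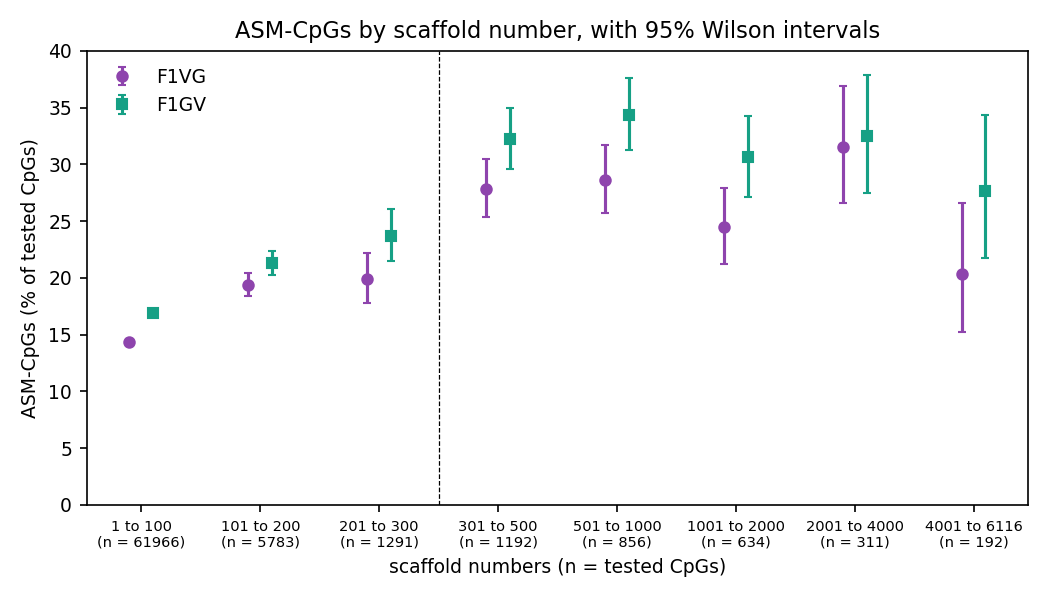
ASM-CpGs as a share of tested CpGs (y axis, %) in 8 groups of scaffold numbers (x axis, with the number of tested CpGs), for F1VG (circles) and F1GV (squares), with 95% Wilson intervals as bars and a dashed line at scaffold 300. The shares climb from 14.4% and 16.9% on scaffolds 1 to 100 to 27.9% and 32.2% on the first group of small scaffolds, up to 500, and show no further steady climb.

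Scaffolds differed widely in this respect. On the 38 small scaffolds with at least 20 tested CpGs the share of ASM-CpGs ran from 0% to 81.0% in F1VG with a median of 27.4%, and from 0% to 95.2% in F1GV with a median of 32.2%. On 141 scaffolds of the other class the medians were 14.6% and 17.7%, and 15 of them in F1VG and 16 in F1GV exceeded the share of the small scaffolds as a whole. The top of the range was SCAFFOLD335, where 17 of 21 tested CpGs were called in F1VG and 20 in F1GV, all 17 kept ones with V higher. SCAFFOLD1860 had the same share in F1VG. The bottom was SCAFFOLD1471, where 0 of 20 were called in either library. SCAFFOLD335 and SCAFFOLD1471 were named after their values were seen.

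A larger share of the called allele differences was kept between the reciprocal crosses on small scaffolds than on the others. Of the 1222 CpGs called in either library, 549 were called in 1 only and 668 in both with the same allele higher, which is 54.7% (51.9% to 57.4%), against 30.6% on scaffolds 1 to 300. Of the 673 called in both, the same allele was higher at 99.3%, against 96.8%. The 668 kept CpGs made up 21.0% of those tested (19.6% to 22.4%), against 7.50% on scaffolds 1 to 300 and 8.09% of all tested CpGs. V was the higher allele at 411 of them (12.9% of those tested, where 5.78% of all tested CpGs were) and G at 257 (8.07%, where 2.31% were). Opposite alleles were higher at the remaining 5 (0.157%), where 0.246% of all tested CpGs were. This order depended on the threshold, since at an adjusted p under 0.01 the share was 0.126%, against 0.0927% on scaffolds 1 to 300.

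The libraries were also set against each other without requiring a call in both. Of the 869 ASM-CpGs of F1VG on small scaffolds, 94.7% (93.0% to 96.0%) had the same allele higher in F1GV, against 81.2% on scaffolds 1 to 300. The size of their difference, as a median, was 72.7 points in F1VG and 69.2 points in F1GV, against 58.9 and 33.3. Of the 1026 ASM-CpGs of F1GV, 90.9% (89.0% to 92.5%) had the same allele higher in F1VG, against 80.4%, and the median size was 69.1 points in F1GV and 62.5 points in F1VG, against 54.5 and 30.6. These are medians, from which single CpGs departed in both directions. Over the 1222 CpGs called in either library, Va minus Ga correlated between the crosses with a Pearson's r of 0.854 and a Spearman's rho of 0.820, against 0.615 and 0.568 over 16945 CpGs on scaffolds 1 to 300. These values describe CpGs that share scaffolds and libraries, and carry no p.

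**Figure D4:**
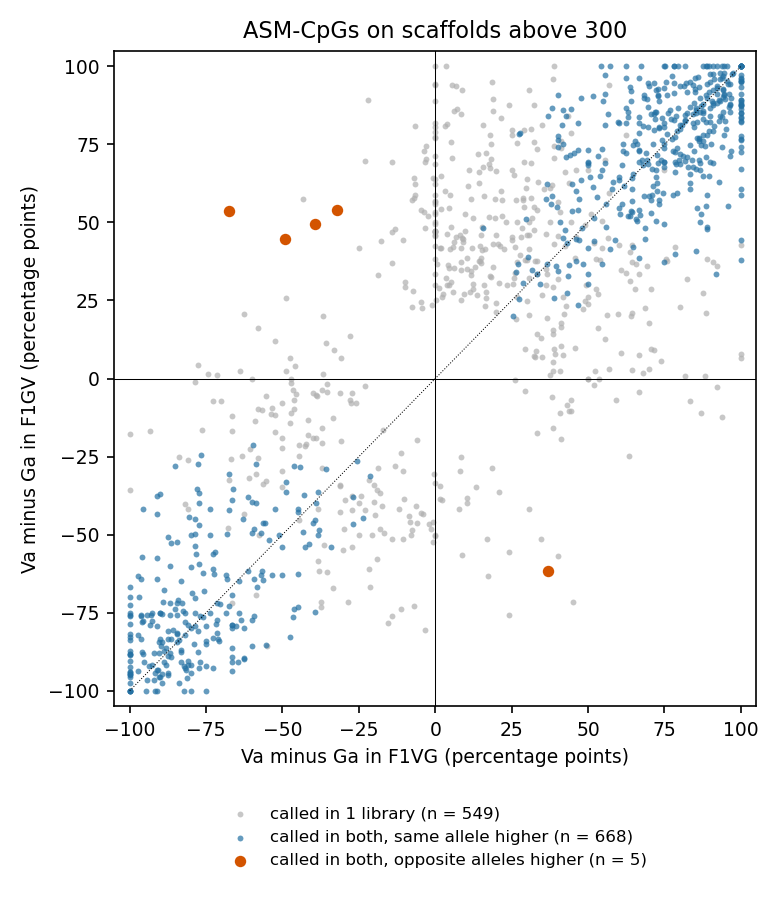
Va minus Ga in F1VG (x axis) and in F1GV (y axis), in percentage points, for the 1222 CpGs on small scaffolds called ASM in either library, one point per CpG, with the line of equal differences dotted. The 668 kept CpGs lie in the upper right (V higher) and lower left (G higher) corners, 549 CpGs were called in 1 library, and the 5 switched CpGs lie apart in the other corners.

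Kept CpGs with the same allele higher tended to lie together. Of 61 small scaffolds with at least 4 kept CpGs, 26 had V higher at each, 21 had G higher at each and 14 had both directions, against 16, 10 and 94 of 120 on scaffolds 1 to 300, which hold more kept CpGs each. Runs of at least 4 CpGs called in both libraries, with at most 1000 bp between neighbours, were taken as ASM regions. There were 60 of them on 53 small scaffolds, with 444 CpGs called in both libraries. These 444 made up 13.9% of the tested CpGs (12.8% to 15.2%), against 3.32% on scaffolds 1 to 300. Other tested CpGs inside the regions are not counted in these shares. On average V was higher in 35 (58.3%, 45.7% to 69.9%) and G in 25, against 75.8% with V higher among 331 regions on scaffolds 1 to 300. The regions had a median of 6.5 CpGs and 683.5 bp. In 56 of the 60 a single allele was higher throughout, in F1VG as in F1GV, against 296 of the 331 on scaffolds 1 to 300. The mean difference of the regions had a median size of 77.3 points in F1VG and 76.7 points in F1GV, against 69.4 and 68.1. It changed by a median of 5.16 points between the crosses, against 7.12. These values follow in part from the choice of CpGs called in both libraries. Over all 3185 tested CpGs of small scaffolds, Va minus Ga changed by a median of 15.6 points, close to the 16.7 points on scaffolds 1 to 300.

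The 3 regions methylated on V and the 3 methylated on G that held most CpGs called in both libraries are given in full, with positions as the files list them on the v1.0 scaffolds and means ± SD across the called CpGs. SCAFFOLD682 from 15923 to 18610 held 19 such CpGs among 25 tested and 38 listed. Va was 84.2% ± 22.5 and Ga 4.92% ± 7.25 in F1VG, and Va was 88.0% ± 15.5 and Ga 4.70% ± 6.61 in F1GV. Va exceeded Ga by 79.2 ± 21.3 points in F1VG and 83.3 ± 18.0 points in F1GV, so at these CpGs a methylated V allele faced a nearly bare G allele whichever parent gave it. The other tested CpGs inside the region were not called in both libraries. Position 17987 was called in F1VG only, with Va at 65.5% in F1VG and 33.3% in F1GV. The other 5, positions 16894, 16902, 16962, 16964 and 16980, were not called in F1VG. Their Va was between 0% and 10.5% in F1VG, where V came from the mother, and between 48.9% and 84.6% in F1GV. Their Ga was at most 4.55% in both. The change passed at 0 of these 5 by the test described below, which compares odds ratios. At positions 16894 and 16964 no read was methylated in F1VG, so the test could not pass there. With so few methylated G reads it can say little at the others, and no conclusion is drawn from it. Over all 25 tested CpGs Va minus Ga was 63.2 ± 36.6 points in F1VG and 78.1 ± 20.7 points in F1GV.

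SCAFFOLD1860 from 3996 to 5256 held 17, which were all the CpGs listed there. Va was 79.7% ± 18.6 and Ga 1.35% ± 3.17 in F1VG, and 82.6% ± 11.8 and 1.72% ± 2.98 in F1GV. Single CpGs of this region had Va between 36.7% and 100% and Ga between 0% and 12.1% in F1VG, and Va between 56% and 100% and Ga between 0% and 10.5% in F1GV, so the alleles did not overlap at any of them. SCAFFOLD595 from 29016 to 30446 held 14 among 17 tested, with Va at 80.9% ± 19.2 and Ga at 1.88% ± 3.92 in F1VG, and 84.8% ± 11.1 and 2.39% ± 4.41 in F1GV.

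Of the G methylated regions, SCAFFOLD5280 from 1283 to 2271 held 14 CpGs, all those tested there. Va was 2.25% ± 2.57 and Ga 87.3% ± 13.4 in F1VG, and 2.09% ± 2.93 and 90.3% ± 8.41 in F1GV. The mean difference of -85.1 points in F1VG and -88.2 in F1GV was the largest of the 6 in both crosses. At every tested CpG of the region Ga was at least 62.5% and Va at most 9.09% in either library.

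SCAFFOLD2262 from 5093 to 5986 held 13 among 15 tested, with Va at 1.15% ± 2.33 and Ga at 78.1% ± 11.3 in F1VG, and 3.16% ± 4.06 and 57.7% ± 14.3 in F1GV. The difference was -77.0 ± 11.2 points in F1VG and -54.6 ± 14.9 in F1GV, with Ga lower where G came from the mother. Over the CpGs called in both libraries it was the only one of the 6 that moved by more than 6 points between the crosses, while over all tested CpGs SCAFFOLD682 moved by 14.9 points and SCAFFOLD2262 by 16.7. On SCAFFOLD2262 1 of the 13 CpGs passed the test of the change described below. The test could not pass at positions 5136, 5539, 5551 and 5597, where V had no methylated read in either library. SCAFFOLD466 from 44609 to 47776 held 10 among 15 tested, with Va at 5.56% ± 5.01 and Ga at 80% ± 12.8 in F1VG, and 2.14% ± 4.82 and 71.2% ± 18.7 in F1GV. Depth behind these 6 regions was a median of 13.5 to 43 reads per allele and library, lowest for V on SCAFFOLD466 in F1VG.

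**Figure D5:**
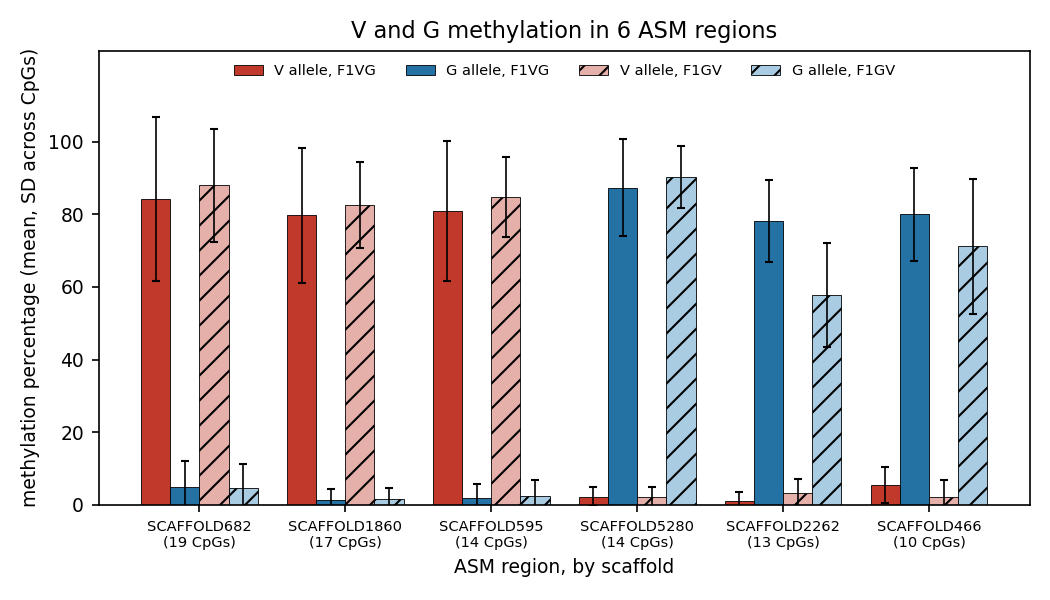
Mean methylation percentage (y axis) of the V allele and the G allele in F1VG (plain bars) and F1GV (hatched bars) in the 3 V methylated and 3 G methylated ASM regions with most CpGs (x axis), over the CpGs called in both libraries, with the SD across CpGs as error bars. The methylated allele averages 57.7% to 90.3% and the other allele 1.15% to 5.56%, and the same allele is methylated in both crosses in all 6.

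The change of the allele difference between the crosses was tested at each CpG by a likelihood ratio test of equal odds ratios in both libraries (1 degree of freedom, Benjamini-Hochberg adjustment over the 72225 CpGs). It compares 2 libraries, since each cross has 1, and the cross and the library cannot be told apart. It passed at 103 of the 3185 CpGs on small scaffolds (3.23%, 2.67% to 3.91%), against 4.80% on scaffolds 1 to 300 and 4.73% of all tested CpGs. The change was toward the maternal allele at 49 (1.54%, where 2.09% of all tested CpGs were) and toward the paternal allele at 54 (1.70%, where 2.64% were). At 82 of the 103 the sign of Va minus Ga changed between F1VG and F1GV, against 2781 of 3311 on scaffolds 1 to 300. Only 5 of the 103 were also called ASM in both with opposite alleles, against 173 of the 3311.

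The smallest p was found at SCAFFOLD5599 position 2847 (likelihood ratio chi-square p = 6.9e-14, adjusted p = 4.6e-10). Of its V reads, 5 of 42 were methylated in F1VG and 26 of 29 in F1GV, and of its G reads 23 of 29 in F1VG and 14 of 39 in F1GV. Each allele was thus the more methylated when it came from the father. At SCAFFOLD372 position 53555 (likelihood ratio chi-square p = 1e-11) 1 of 32 V reads was methylated in F1VG, against 25 of 28 V reads in F1GV, while G had 6 of 24 and 0 of 33. Of 16 tested neighbours within 1000 bp, the change passed at 1. At SCAFFOLD309 position 13673 (likelihood ratio chi-square p = 1.5e-10) 15 of 34 V reads were methylated in F1VG and 0 of 24 in F1GV, while G had 2 of 28 and 21 of 34, the pattern of a more methylated maternal allele. It ended a run of 4 CpGs from 13493 at which the change passed and whose mean Va minus Ga was 31.6 ± 5.53 points in F1VG and -57.6 ± 14.6 in F1GV. The other 2 tested CpGs inside this stretch moved the opposite way without passing, with -0.62 points in F1VG and 24.7 in F1GV at position 13575, and 14.8 and 46.0 at position 13580.

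Position 13673 was also 1 of the 5 switched CpGs, those called in both libraries with opposite alleles higher. The other 4, position 2847 among them, formed a run on SCAFFOLD5599 from 2630 to 2862, with a mean Va minus Ga of -47.1 ± 15.2 points in F1VG and 50.4 ± 4.38 in F1GV. The CpGs around them were mixed. At position 2610, just before the run, the change also passed, with Va minus Ga at -3.79 points in F1VG and 72.9 in F1GV. At position 2701, within the run, Va minus Ga was -14.9 points in F1VG and 27.1 in F1GV, and the change did not pass. Between there and 2847, V was higher than G in both crosses at 3 adjacent CpGs, positions 2767, 2796 and 2820. At position 2796 V was methylated at 60% and G at 0% in F1VG, and V at 100% and G at 35.3% in F1GV. At positions 1802 and 1806, further up the scaffold, both alleles were at 100% in F1VG and between 75% and 93.3% in F1GV. Switched, kept and shared methylation thus lay side by side on this scaffold, and its depth was 1.07 times that of the series.

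Total methylation over all reads differed little between the crosses. The mean level of the tested CpGs was 50.5% in F1VG and 50.8% in F1GV on small scaffolds, against 52.8% and 51.9% on scaffolds 1 to 300. Fisher's exact test, two-sided and adjusted in the same way, called a difference between the libraries at 255 of the 3185 (8.01%, 7.11% to 9.0%), against 9.47% on scaffolds 1 to 300 and 9.40% of all tested CpGs. The level was higher in F1VG at 38.0% of these 255 and in F1GV at the others, against 47.1% with F1VG higher on scaffolds 1 to 300. Their median difference was 30.1 percentage points, against 28.0.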

How the data were processed

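WGBS-seq of F1VG and F1GV, 1 library each, was used. The authors trimmed 101 bp reads, mapped them with BWA against bisulfite-converted genomes of both species (v1.0), kept unique hits and assigned reads to V or G by SNPs and indels. The deposited values are unnormalized counts of converted and unconverted reads for all, V and G reads, at CpGs where each allele has 8 or more reads. Whether counts sum both strands is not given in the sources used here. The authors state that a mapping bias between the alleles was corrected, and how is not given.

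CpGs listed in both libraries were joined by scaffold and position and divided at scaffold number 300. Methylation percentages, Wilson intervals (95%), Fisher's exact tests, likelihood ratio tests and regions used SciPy 1.17.1 and Numba 0.67.0 in Python 3.11.15, with tables in pandas 2.3.3 and NumPy 2.4.6 and plots in Matplotlib 3.10.9. The tests were first tested on simulated data. The scaffolds described had 10282839 counts in F1VG and 12463614 counts in F1GV. With a median near 20 reads per allele, small differences at single CpGs go undetected.

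Scaffolds, regions and CpGs were named by rule: the 5 scaffolds with most methylated CpGs, the 3 V and 3 G methylated regions with most CpGs called in both libraries, the 3 smallest interaction p-values and every run of at least 4 switched CpGs, the 3 deepest scaffolds and those with the 3 highest and 3 lowest V shares, and the 10 scaffolds on either side of the limit. Others are marked as named later. The members, lists and tests were chosen with earlier results of these data known. Alternatives were other levels, read minima, thresholds, tests and limits of scaffold number.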

Additional observations from a re-analysis of the deposited data

Results flagged for a closer look

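The allele difference changed between the reciprocal crosses at 103 CpGs on small scaffolds by the likelihood ratio test of the interaction. These were 3.23% of those tested, where 4.73% of all tested CpGs passed. The test cannot pass where an allele has no methylated read in either library, so no conclusion is drawn from the lower share. The smallest p-values were 6.9e-14 at SCAFFOLD5599 position 2847, 1e-11 at SCAFFOLD372 position 53555 and 1.5e-10 at SCAFFOLD309 position 13673. The run of 4 switched CpGs on SCAFFOLD5599 stood out because G was higher in F1VG (mean Va minus Ga -47.1 points) and V in F1GV (50.4 points). All of these compare 2 libraries.

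CpGs listed in a single library entered no comparison above. A total level of at least 20% was found at 1.01% (95% Wilson interval 0.844% to 1.21%) of the 11355 CpGs listed only in F1VG on small scaffolds and at 1.85% (1.73% to 1.97%) of the 47899 listed only in F1GV. On scaffolds 1 to 300 the shares were 0.881% and 1.32%.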

How the results depend on the processing

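The share of methylated CpGs on small scaffolds, 1.13%, was 1.42% at a level of at least 10% (1.22% on scaffolds 1 to 300) and 0.709% at 50% (0.693%). It was 1.31% as a mean of scaffold shares (0.896%), 1.06% without SCAFFOLD309, 1.07% with the limit at scaffold 200 and 1.21% with the limit at 1000. Without the 5 scaffolds with most methylated CpGs, an alternative chosen after seeing the data, it was 0.957%. Scaffolds 1 to 300, from which none were left out, had 0.965%. Without the level filter, ASM-CpGs numbered 511 in F1VG (0.236%, against 0.0825% on scaffolds 1 to 300) and 683 in F1GV (0.316%, against 0.115%). Kept CpGs then numbered 406 (0.188%, against 0.0448%), switched CpGs 2 (0.000925%, against 0.000282%) and interaction CpGs 12 (0.00555%, against 0.00854%). With at least 16 reads per allele, of 1192 tested, ASM-CpGs numbered 431 in F1VG (36.2%, against 20.8%) and 470 in F1GV (39.4%, against 22.3%). There were 327 kept CpGs (27.4%, against 10.4%) and 49 interaction CpGs (4.11%, against 7.24%). The interaction passed at 31 CpGs with an adjusted p under 0.01 (0.973%, against 1.75%) and at 274 with a z test (8.60%, against 9.99%). The switched share was 0.126% with an adjusted p under 0.01, against 0.0927%, and 0.419% with at least 16 reads per allele, against 0.432%. Which class had the larger switched share thus depended on the setting. Under each alternative run for ASM-CpGs and kept CpGs, small scaffolds had the larger share of both. The number of ASM regions was 53 with at most 500 bp between neighbours and 79 with at least 3 CpGs. No paired analysis was possible because there is 1 library per cross, and for the same reason no replicate could be left out. Depth limits the calls at single CpGs, and the share of ASM-CpGs was 36.2% in F1VG and 39.4% in F1GV at 16 or more reads per allele, against 27.3% and 32.2% at 8 or more.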
